A study of Mus musculus with 6 samples.

Results

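The 30 genes described here encode enzymes and regulators of cholesterol and fatty acid synthesis. They were taken by symbol from a table of 54232 genes, and all 30 were found. Expression was measured in leukaemic B cells sorted from mouse spleen, in 3 libraries from recipients given the casein kinase 1 delta and epsilon inhibitor PF-670462 (CK1i) and 3 from recipients given its vehicle (CTRL). All recipients were wild-type C57BL/6J mice injected in the peritoneum with leukaemic mononuclear cells of Eµ-TCL1 donors, whose human TCL1 transgene is driven by the immunoglobulin Eµ enhancer in B cells. The donors were terminally ill, with at least 60% CD5+ CD45R(low) cells among blood leukocytes, and 99% of the injected mononuclear cells were leukaemic. Both groups were dosed by mouth from day 5, with 5 days of dosing and 2 of recovery, for 8 weeks, with 50 mg/kg PF-670462 in 10% kolliphor in PBS or with 10% kolliphor in PBS alone, until the CTRL mice were terminally ill. The comparison asks how the leukaemia cells differ in expression under the inhibitor. The labels give no ages, do not say how many donors were used or whether each library was 1 mouse, and carry a single batch number, so p-values measure only the spread between these samples, which may be technical.

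Animal cells make cholesterol from acetyl-CoA. The mevalonate pathway yields isoprenoid units, these are joined to squalene, and squalene is closed to a ring and trimmed to cholesterol. The transcription factors SREBP-1 and SREBP-2, products of Srebf1 and Srebf2, drive these genes. SCAP carries the SREBPs to the Golgi for activation when sterols are low, and INSIG proteins hold them in the endoplasmic reticulum when sterols are ample. SREBP-1 also drives fatty acid synthesis and is itself a target of LXR, the oxysterol receptor. Dividing lymphocytes need both lipids for new membrane.

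No member passed the test between the groups. Of the 30 members, 28 had enough counts to be tested, and 0 were called higher and 0 lower in CK1i at an adjusted p under 0.05 (edgeR quasi-likelihood test with Benjamini-Hochberg adjustment over all 10067 tested genes). DESeq2 and limma-voom called 0 members as well. The share of all tested genes called was 0% in each direction. The smallest adjusted p of a member was 0.999. Values were higher in CK1i for 13 members and lower for 15, where 48.8% of all tested genes had higher values. The median log2 fold change of the members was -0.0084, beside -0.0055 over all tested genes. At an unadjusted p under 0.05 there was 1 member, Hmgcs1 with a lower value, where 4.70% of all tested genes had such a p, 2.70% with higher and 2.00% with lower values. The groups did not overlap in 4 members, with CK1i above CTRL for Acat2, Scap and Srebf1 and below it for Insig2. Over all tested genes 9.70% did not overlap, 5.22% with CK1i above and 4.48% below.

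The 95% confidence intervals show how large a difference these libraries could have missed. For 24 of the 28 tested members the interval lay wholly between a log2 fold change of -1 and 1. The other 4 were Insig1, Lss, Dhcr7 and Tm7sf2. From the estimate to the bound, the intervals had a median reach of 0.45 over the tested members and 0.42 over all tested genes.

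**Figure D1:**
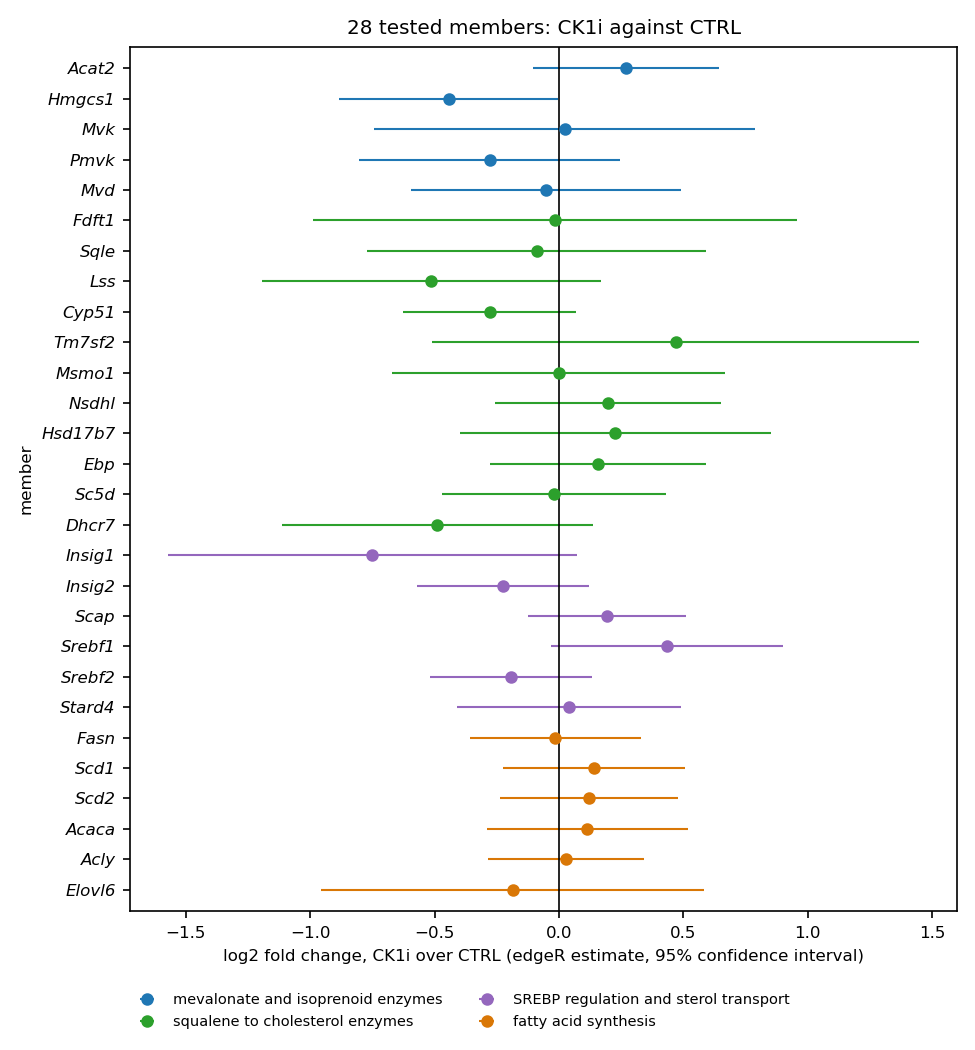
Log2 fold change of CK1i over CTRL (x axis) for the 28 tested members (y axis) in role order, as the edgeR estimate (point) with its 95% confidence interval (line). The intervals of all members but Hmgcs1, which reaches -0.0041, cross 0.

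The 6 libraries held 2472064 to 3105137 counts, and the members took 0.223% to 0.259% of them. Levels are TMM-scaled CPM, counts relative to the sum over tested genes, on the usual CPM scale and adjusted between libraries, and 1 count was worth 0.326 to 0.401 CPM. They are not divided by length and are not compared between genes. B-cell and leukaemia markers (11 genes) summed to 7402 to 8438 CPM, with 10 detected, and the mouse gene Tcl1 had 0 counts. Pax5, a B-cell transcription factor, averaged 754 ± 60.3 CPM under CK1i (SD, n = 3) and had a log2 fold change of 0.22 ± 0.14 (SE). Most of the list pointed the other way: of its 10 tested genes 3 were higher and 7 lower in CK1i, with a median of -0.14. The T-cell list (10 genes) summed to 133 to 191 CPM in CK1i and 121 to 141 CPM in CTRL, most of it Lck (log2 fold change 0.22 ± 0.15), while Cd3d, Cd3e, Cd3g, Cd4, Cd8a and Cd8b1 had 4 to 11 counts each over the 6 libraries. The macrophage list summed to 46.3 to 65.5 CPM in CK1i and 39.4 to 54.0 CPM in CTRL. Most of it was Cd68 and Mrc1, with 475 and 265 counts in all, and in CTRL replicate 1 Mrc1 was the higher. Adgre1 had 29 counts, C1qa, C1qb, C1qc, Csf1r and Lyz2 had 1 to 16, and Spic and Fcgr1 had 0. Neutrophil markers had 0 to 11 counts in a library and erythroid markers 8 to 17. The stromal list summed to 163 to 177 CPM in CK1i and 176 to 191 CPM in CTRL, most of it Pecam1 (log2 fold change -0.12 ± 0.13), with Kdr, Col3a1, Cxcl13 and Ccl19 at 0. Itgam, Hbb-bt and Col1a1, with 53 to 65 counts each in all, had log2 fold changes of 0.44 ± 0.52, 0.34 ± 0.40 and -0.77 ± 0.41. In these bulk samples, fewer cells of a type and less RNA per cell cannot be told apart.

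The promoters of 4 members are shown because these genes shared the same extremes: each had its highest level in CTRL replicate 1 and its lowest in CK1i replicate 2, for Insig1 with CTRL replicate 3 nearly as high. They are Hmgcs1, Insig1, Lss and Cyp51, chosen after their values were seen. This order of extremes held for 4 of 28 tested members (14.3%) and for 410 of all tested genes (4.07%). The sequences are from RefSeq on GRCm38.p6, 5′ to 3′ on the gene's strand, and end before the start of the gene in both RefSeq and GENCODE. Capitals mark TCACNCCAC, a form of the sterol regulatory element that SREBPs bind, CCAAT, the box of the factor NF-Y that acts beside SREBPs, and CACGTG, the E-box, each on either strand (CCAAT reads ATTGG on the other).
Hmgcs1, chr13:119690101-119690350, plus strand: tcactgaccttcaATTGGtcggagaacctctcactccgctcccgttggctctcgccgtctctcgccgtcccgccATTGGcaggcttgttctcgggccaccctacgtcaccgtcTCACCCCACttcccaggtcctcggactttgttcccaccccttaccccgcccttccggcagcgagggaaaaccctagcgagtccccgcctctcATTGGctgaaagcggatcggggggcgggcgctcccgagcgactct
Insig1, chr5:28071162-28071362, plus strand: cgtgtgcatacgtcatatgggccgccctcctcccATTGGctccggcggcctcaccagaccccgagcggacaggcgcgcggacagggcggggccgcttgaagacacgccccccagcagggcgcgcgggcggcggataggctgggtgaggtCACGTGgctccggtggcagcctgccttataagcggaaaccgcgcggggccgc
Lss, chr10:76531355-76531587, plus strand: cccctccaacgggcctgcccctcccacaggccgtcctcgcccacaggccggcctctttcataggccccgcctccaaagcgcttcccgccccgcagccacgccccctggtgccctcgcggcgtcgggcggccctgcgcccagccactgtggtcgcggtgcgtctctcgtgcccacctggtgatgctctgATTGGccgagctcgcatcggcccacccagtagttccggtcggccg
Cyp51, chr5:4104747-4104947, minus strand: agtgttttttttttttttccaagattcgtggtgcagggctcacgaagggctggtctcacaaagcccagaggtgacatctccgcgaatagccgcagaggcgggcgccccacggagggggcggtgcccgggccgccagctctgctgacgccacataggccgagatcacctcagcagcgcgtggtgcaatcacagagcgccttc

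The Hmgcs1 stretch held the sterol element as TCACCCCAC, at bases 137 to 129 before the RefSeq start, with 3 inverted CCAAT boxes around it. Insig1 held an E-box at bases 101 to 96 before the start and an inverted CCAAT box, Lss an inverted CCAAT box, and the stretch of Cyp51 none of these letters. Promoters were found for 24 of the 30 members, and motifs were counted in the 250 bases before each RefSeq start. TCACNCCAC lay in 1 of the 24 members, Hmgcs1, and in 1.22% of all genes with a promoter. Those genes, 27025 in all, include many that were not tested here, and the shares below are over the same genes. CCAAT lay in 19 of 24 members (79.2%), among them Hmgcs1, Idi1, Cyp51, Lss, Fasn and Srebf2, where 37.5% of all genes had it. The GC box GGGCGG lay in 20 members (83.3%, against 35.4% of all genes) and CACGTG in 5 (20.8%, against 6.86%), which were Dhcr7, Hsd17b7, Insig1, Sc5d and Scap. In Cyp51 the CCAAT box was at bases 29 to 25 before the RefSeq start, within the longer GENCODE gene. A match of letters is a description, and binding was not measured.

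The mevalonate and isoprenoid enzymes had 5 tested members of 7, 2 higher and 3 lower in CK1i. Their median log2 fold change was -0.052, and it was -0.31 without CK1i replicate 1 and 0.072 without CK1i replicate 3. Hmgcs1 (ENSMUSG00000093930, chromosome 13, 119690379 to 119708260) encodes the cytosolic synthase of HMG-CoA. Its levels were 44.7, 33.9 and 52.1 CPM in CK1i replicates 1 to 3 and 74.9, 56.3 and 46.4 CPM in CTRL replicates 1 to 3. CK1i replicate 3 lay above CTRL replicate 3, so the groups overlapped, and CTRL replicate 1 was the highest of all libraries. The log2 fold change was -0.44 ± 0.20 (SE; edgeR adjusted p = 0.999), with an interval from -0.88 to -0.0041, and it was -0.24 without CTRL replicate 1.

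Acat2 (chromosome 17, 12942890 to 12960747) encodes the cytosolic thiolase that joins 2 acetyl-CoA at the head of the pathway. It had 31.9, 34.3 and 38.9 CPM in CK1i and 25.9, 31.1 and 30.05 CPM in CTRL, so every CK1i library lay above every CTRL library, the closest pair by less than 1 CPM. Its log2 fold change was 0.27 ± 0.18 (SE), with an interval from -0.11 to 0.64. Within the last 300 bases of the transcript, 153 bases matched Acat3, a neighbouring copy, and the opposite strand of Tcp1 at 97.4% identity; Acat3 had 0 counts and Tcp1 3957. How the counting dealt with these reads was not tested.

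Pmvk, phosphomevalonate kinase, had 16.5, 13.7 and 11.2 CPM in CK1i and 18.1, 12.8 and 19.4 CPM in CTRL, a log2 fold change of -0.28 ± 0.24 (SE) with overlapping groups. With 1 library left out it ran from -0.44 (without CTRL replicate 2) to -0.16 (without CTRL replicate 3). Mvk, mevalonate kinase, and Mvd, the decarboxylase that makes isopentenyl diphosphate, had 0.02 ± 0.36 and -0.05 ± 0.25. The groups of Mvd covered nearly the same range, 20.9 to 35.5 CPM in CK1i and 20.4 to 39.4 CPM in CTRL.

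Idi1, the isomerase of isopentenyl diphosphate, and Fdps, the synthase of farnesyl diphosphate, were too low to test. Idi1 had 3, 3 and 3 counts in CK1i and 1, 1 and 3 in CTRL, and Fdps 3, 3 and 2 counts in CK1i and 9, 5 and 4 in CTRL. A floor of 3 counts was worth about 1 CPM, so these levels lie at or near the limit of detection. Both genes have near-identical copies of their 3′ ends elsewhere: 5 processed pseudogenes for Fdps and 2 for Idi1 matched at 96% to 100% identity over 123 to 300 bases, and each had 0 counts. Gm43738, annotated as protein-coding, overlaps Fdps on the same strand, shares all 300 of its last bases at 100% identity and also had 0 counts. How reads that match several places were counted was not tested, so the counts of Idi1 and Fdps are uncertain.

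The enzymes from squalene to cholesterol were all tested, 11 of 11, with 4 values higher and 7 lower and a median of -0.016 on the log2 scale. Cyp51 (chromosome 5, 4081145 to 4104746) encodes lanosterol demethylase. It had 91.8, 66.5 and 89.0 CPM in CK1i and 114.7, 90.2 and 95.1 CPM in CTRL. CK1i replicate 1 lay above CTRL replicate 2, so the groups overlapped, and the log2 fold change was -0.28 ± 0.16 (SE), with an interval from -0.63 to 0.07. Without CK1i replicate 2 it was -0.15, and without CTRL replicate 1 -0.17. The last 166 bases of Cyp51 lie opposite Akap9, which had 2087 counts beside 1539 for Cyp51, so the values are uncertain if strand was not used.

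Lss, lanosterol synthase, closes the first ring structure. Its levels were 8.55, 4.89 and 7.22 CPM in CK1i and 12.8, 7.58 and 9.01 CPM in CTRL, with 15 to 36 counts a library. The log2 fold change was -0.51 ± 0.32 (SE), and its interval reached from -1.20 to 0.17. Without CTRL replicate 1 it was -0.28, and without CK1i replicate 2 -0.31. Dhcr7, the last reductase of the pathway, had 7.24, 9.79 and 9.22 CPM in CK1i and 14.2, 7.98 and 14.4 CPM in CTRL, with CTRL replicate 2 inside the range of the CK1i libraries. Its log2 fold change was -0.49 ± 0.29 (SE), with an interval from -1.11 to 0.14. For both genes a difference of 2-fold in CK1i was within the interval only in the direction of lower values.

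Sqle, squalene epoxidase, a second point of control of the pathway, had 12.2, 11.1 and 21.3 CPM in CK1i and 20.9, 9.58 and 16.0 CPM in CTRL. Both groups covered about the same range, and the log2 fold change of -0.09 ± 0.32 (SE) had no stable sign, being 0.17 without CTRL replicate 1 and -0.43 without CK1i replicate 3. Msmo1, sterol methyl oxidase, had 26.7, 18.3 and 33.7 CPM in CK1i and 39.0, 21.2 and 18.0 CPM in CTRL, a log2 fold change of -0.0018 ± 0.30. Tm7sf2, a sterol reductase, had 17, 34 and 7 counts in CK1i and 18, 8 and 14 in CTRL. Its log2 fold change was 0.47 ± 0.46 and -0.16 without CK1i replicate 2, the library that held the highest value, and 79 bases of its 3′ end are shared with Vps51 on the same strand (377 counts).

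The other 5 of these enzymes had differences from -0.02 to 0.23, each smaller than its SE. They were Nsdhl with 0.20 ± 0.21, Hsd17b7 with 0.23 ± 0.29, Ebp with 0.16 ± 0.20, Sc5d with -0.02 ± 0.21 and Fdft1 with -0.02 ± 0.45 (log2 fold change ± SE). Fdft1, squalene synthase, which commits the pathway to sterols, had 61 counts in all, and its last 300 bases lie opposite Ctsb, with 3269 counts. Its level is therefore uncertain in the same way as that of Cyp51.

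**Figure D2:**
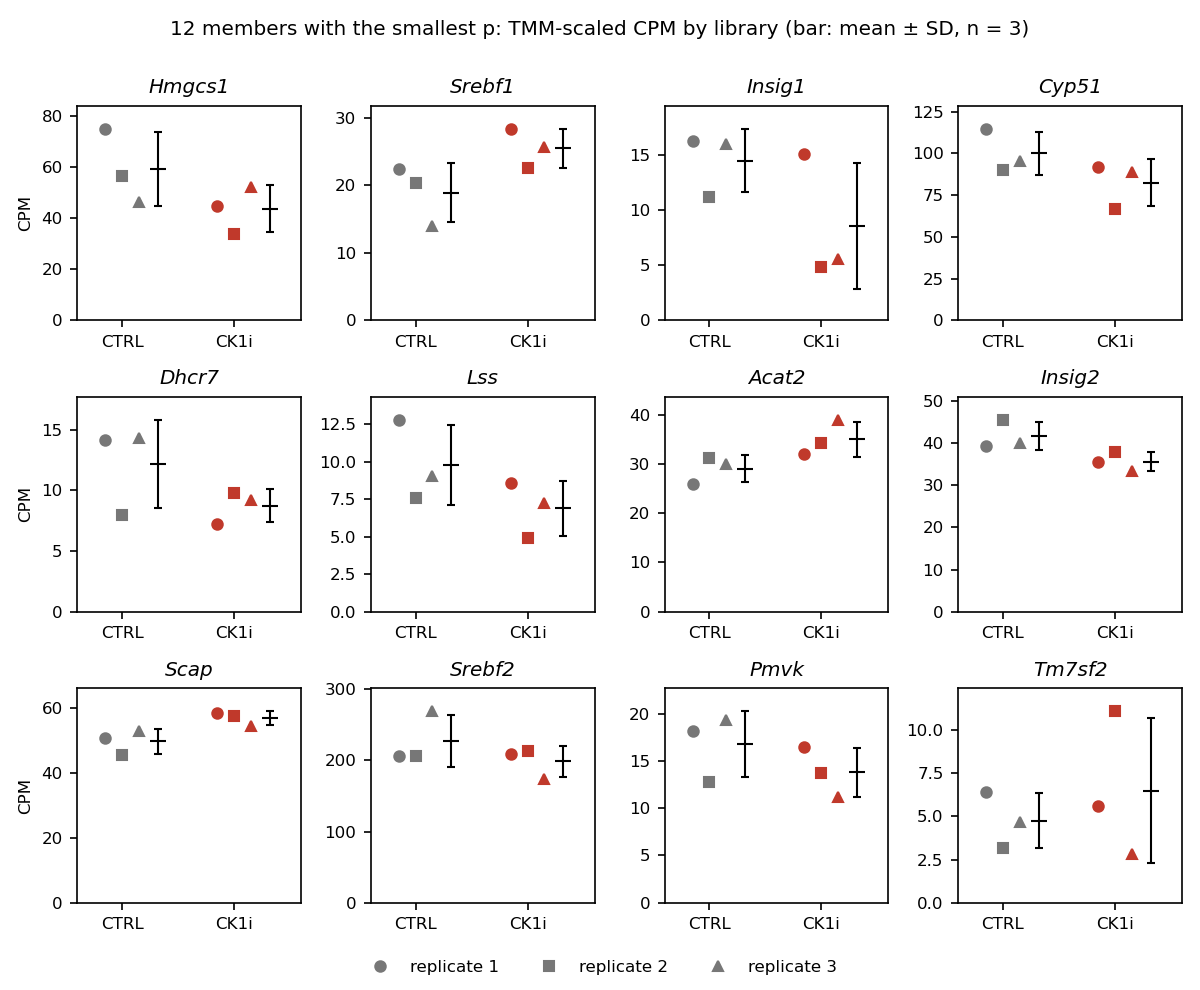
TMM-scaled CPM (y axis, from 0) of the 12 members with the smallest p, by group (x axis), with 1 marker shape per replicate number and the mean ± SD (n = 3) beside the points. Acat2, Scap, Srebf1 and Insig2 have groups apart, and Insig1 has 1 CK1i library among the CTRL libraries. Replicate numbers are names and pair no samples.

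Among the regulators the values pointed in both directions, 3 higher and 3 lower, with a median of -0.077. Insig1 (ENSMUSG00000045294, chromosome 5, 28071363 to 28078662), the sterol-responsive retention factor of SREBPs, had the largest log2 fold change of all tested members in size. Its levels were 15.1, 4.89 and 5.61 CPM in CK1i and 16.3, 11.2 and 16.0 CPM in CTRL, from 46, 15 and 14 counts and 46, 28 and 48 counts. CK1i replicates 2 and 3 lay below every CTRL library, while CK1i replicate 1 lay among them. The log2 fold change was -0.75 ± 0.38 (SE; edgeR adjusted p = 0.999), with an interval from -1.57 to 0.07. It was -1.47 without CK1i replicate 1 (edgeR adjusted p = 0.276) and -0.46 without CK1i replicate 2, the ends of its range over the alternatives, in which the adjusted p was never below 0.276.

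Insig2, the second retention factor, is less dependent on SREBPs. It had 35.5, 37.8 and 33.3 CPM in CK1i and 39.4, 45.5 and 40.1 CPM in CTRL. Every CK1i library lay below every CTRL library, and the log2 fold change was -0.23 ± 0.16 (SE), with an interval from -0.57 to 0.12. Both INSIG genes thus had lower values in CK1i, and neither passed the test.

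Srebf1 (ENSMUSG00000020538, chromosome 11, 60199089 to 60222581) had 28.3, 22.5 and 25.7 CPM in CK1i and 22.4, 20.4 and 14.0 CPM in CTRL. The groups did not overlap, although CK1i replicate 2 and CTRL replicate 1 differed by less than 1 CPM. Its log2 fold change was 0.43 ± 0.22 (SE; edgeR adjusted p = 0.999), with an interval from -0.03 to 0.90, and without CTRL replicate 3 the estimate was 0.25. Libraries of 3′ ends cannot separate the SREBP-1a and SREBP-1c transcripts, which share their last exons. The last 109 bases of Srebf1 lie opposite Rai1, with 701 counts beside 375.

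Srebf2, the main activator of the sterol enzymes, had 208.6, 213 and 173.7 CPM in CK1i and 206, 206 and 269 CPM in CTRL. The 2 lower CTRL libraries lay within the CK1i range, and CTRL replicate 3 set the difference: the log2 fold change was -0.19 ± 0.15 (SE), and -0.051 without that library. Scap had 58.6, 57.7 and 54.5 CPM in CK1i and 50.8, 45.5 and 53.1 CPM in CTRL, with the groups apart by a narrow margin and a log2 fold change of 0.19 ± 0.15, or 0.13 without CTRL replicate 2. Stard4, a carrier of cholesterol between membranes that SREBP-2 drives, had 0.04 ± 0.21.

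The 6 fatty acid enzymes were all tested, 4 higher and 2 lower. Their log2 fold changes ran from -0.19 to 0.14, the narrowest range of the 4 groups of members. The median was 0.070, and it was -0.024 without CK1i replicate 1 and 0.11 with the stricter filter on low counts. Scd1 (chromosome 19, 44394455 to 44407879) encodes a stearoyl-CoA desaturase that makes oleate. It had 943, 839 and 691 CPM in CK1i and 644, 693 and 906 CPM in CTRL, the ranges overlapping almost wholly. Scd2, the neighbouring desaturase gene, had 414, 422 and 448 CPM in CK1i and 341, 505 and 335 CPM in CTRL. The CK1i libraries of Scd2 lay close together inside the wider CTRL range, and the log2 fold changes were 0.14 ± 0.17 for Scd1 and 0.12 ± 0.17 for Scd2 (SE), with upper bounds of 0.51 and 0.48. With 1 library left out, Scd1 ran from 0.031 (without CK1i replicate 1) to 0.30 (without CTRL replicate 3), and Scd2 from 0.018 (without CTRL replicate 3) to 0.33 (without CTRL replicate 2).

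Fasn, fatty acid synthase, had 92.1, 78.3 and 85.0 CPM in CK1i and 72.1, 81.0 and 104.8 CPM in CTRL. Its log2 fold change was -0.02 ± 0.16, with an interval from -0.36 to 0.33. Acly, which makes cytosolic acetyl-CoA from citrate for both pathways, averaged 344 ± 50.3 CPM under CK1i against 338 ± 22.7 CPM under CTRL (SD, n = 3). The log2 fold change of Acly was 0.03 ± 0.15 (SE), with an interval from -0.29 to 0.34. Acaca, acetyl-CoA carboxylase, had 0.11 ± 0.19 and Elovl6, an elongase, -0.19 ± 0.36. For Fasn and Acly the interval leaves out a change of 1.5-fold in either direction.

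**Figure D3:**
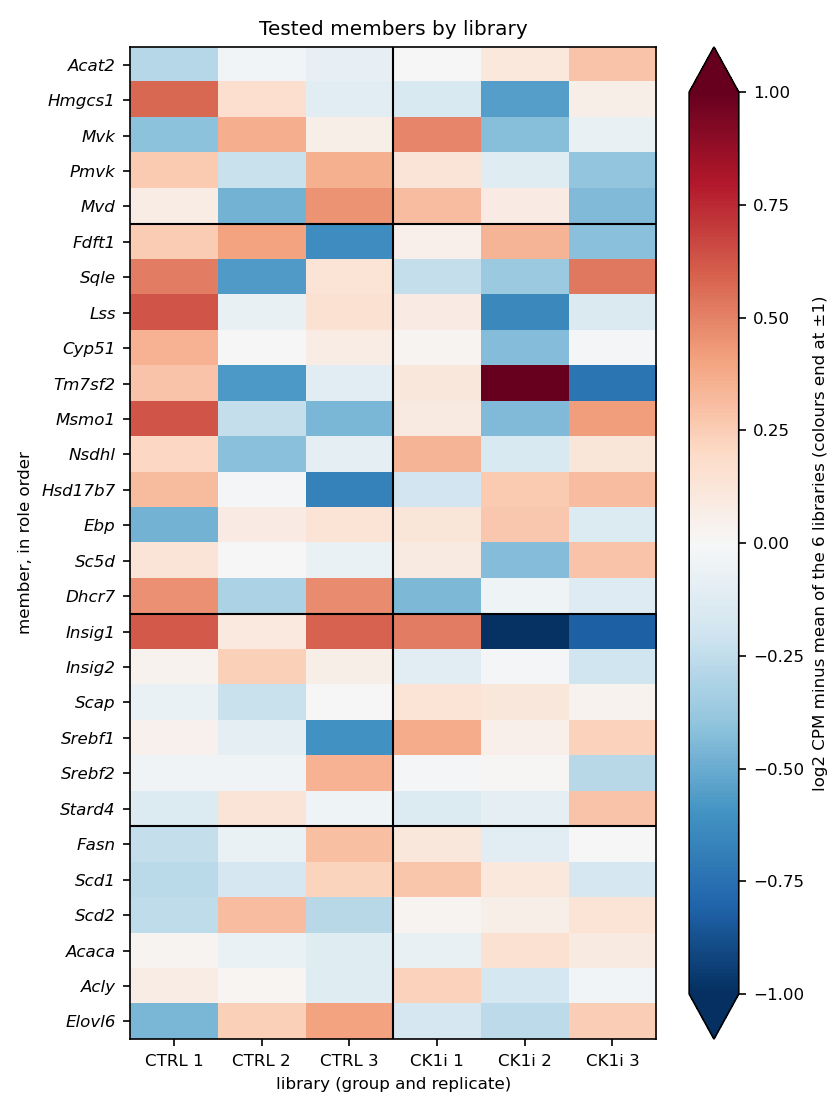
Log2 CPM of the 28 tested members (rows, in role order, with lines between the 4 role groups) in each of the 6 libraries (columns), minus the member's mean over the libraries. Hmgcs1, Lss and Msmo1 are highest in CTRL replicate 1, Tm7sf2 in CK1i replicate 2, and Insig1 is low in CK1i replicates 2 and 3 only.

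Averaged over each role group, levels differed by library. The mevalonate and isoprenoid enzymes had a mean log2 CPM of 4.63, 4.29 and 4.36 in CK1i replicates 1 to 3. In CTRL replicates 1 to 3 it was 4.51, 4.43 and 4.61. For the regulators it was 5.31, 5.02 and 5.06 in the CK1i libraries and 5.25, 5.20 and 5.24 in the CTRL libraries. In both role groups CK1i replicate 1 was the highest library, while CK1i replicates 2 and 3 lay below every CTRL library. For the 11 enzymes from squalene to cholesterol the mean log2 CPM was 4.05, 3.99 and 4.06 in the CK1i libraries, against 4.35, 3.89 and 3.96 in CTRL replicates 1 to 3. CTRL replicate 1 stood above the other 5 libraries, and the CTRL group held both the highest and the lowest value. CTRL replicate 1 had the highest level for 5 of the 16 tested sterol enzymes (31.3%), where it was highest for 20.8% of all tested genes. CK1i replicate 2 had the lowest level for 5 of the 16 (31.3%), where it was lowest for 14.5% of all tested genes. It was not the lowest on average: the mean log2 CPM of the 16 was 4.06 in CTRL replicate 2 and 4.09 in CK1i replicate 2. For the fatty acid enzymes the mean log2 CPM was lowest in CTRL replicate 1, at 6.53, and 6.67 to 6.78 in the other 5 libraries.

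CTRL replicate 1 had the least and CK1i replicate 2 the most expression of proliferation genes. The mean log2 CPM of 26 such genes was 5.42, 6.29 and 6.04 in the CTRL libraries, in order of replicate, against 6.44, 6.90 and 6.48 in the CK1i libraries. All 26 had higher values in CK1i, where 48.8% of all tested genes did. Their median log2 fold change was 0.64, beside -0.0055 over all tested genes. In the edgeR test 0 passed, and 17 had an unadjusted p under 0.05, where 4.70% of all tested genes had such a p. This list was chosen with earlier results of these data known. Ube2c and Kif20a, which act in mitosis, had the smallest p, with 1.44 ± 0.29 and 0.87 ± 0.18 (SE). The part of proliferation in the sterol values was not tested. With 1 library left out, the median log2 fold change of the enzymes from squalene to cholesterol ran from -0.19 without CK1i replicate 3 to 0.12 without CTRL replicate 1.

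**Figure D4:**
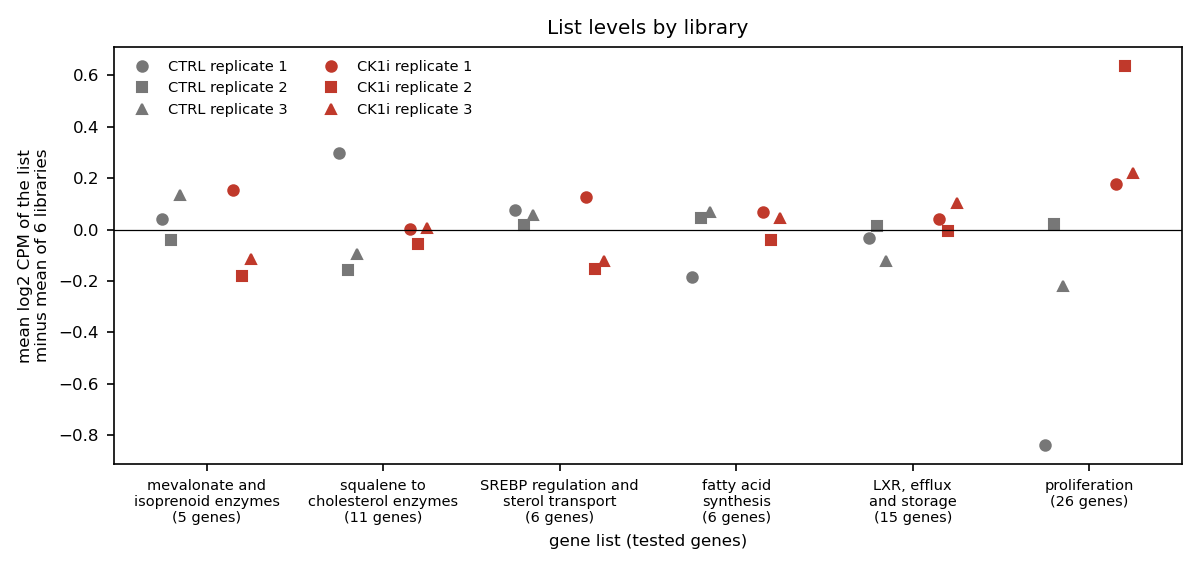
Mean log2 CPM of each gene list minus its mean over the 6 libraries (y axis) for 6 lists (x axis), with colour for the group and shape for the replicate number. CTRL replicate 1 is highest for the squalene to cholesterol enzymes and lowest for fatty acid synthesis and for proliferation, and the groups overlap in every list but proliferation.

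Sterol genes outside the 30 did not pass the test either. In the list of sterol synthesis and uptake 7 of 10 genes were tested, 4 higher and 3 lower, their median was 0.0066 on the log2 scale, and 0 were past the threshold. Acat1, the mitochondrial thiolase, had 0.32 ± 0.18 (SE), and 0.18 without CTRL replicate 3.

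Of the genes that process and degrade SREBPs, 17 of 17 were tested, 5 higher and 12 lower, with a median of -0.033 and 0 past the threshold. Aup1, a factor of endoplasmic reticulum degradation, had a log2 fold change of -0.38 ± 0.17 (SE), and Sec23b, a coat protein of the vesicles that leave the endoplasmic reticulum, 0.29 ± 0.14. The protease genes Mbtps1 and Mbtps2, which cut the SREBPs free in the Golgi, had -0.02 ± 0.14 and -0.03 ± 0.19. Among 16 tested genes of isoprenoid use 9 were higher and 7 lower, with 0 past the threshold. They included Trit1, which puts an isopentenyl group on transfer RNA, with -0.45 ± 0.21, and Coq2, of coenzyme Q synthesis, with 0.29 ± 0.17.

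The LXR pathway is the counterpart of SREBP-2, since it drives sterol efflux when oxysterols are high. Its list had 15 of 23 genes tested, 9 higher and 6 lower, a median of 0.086 on the log2 scale and 0 past the threshold. Mylip, which encodes the ubiquitin ligase IDOL, had 53.6, 64.9 and 62.2 CPM in CK1i and 50.1, 51.9 and 35.7 CPM in CTRL. The groups were apart, and the log2 fold change was 0.39 ± 0.17 (SE), with an edgeR adjusted p of 0.999. It was 0.24 without CTRL replicate 3, its lowest library. Abcg1, a sterol exporter, had 0.31 ± 0.16, and the exporter Abca1 0.33 ± 0.22. Soat1, which esterifies cholesterol for storage, had 0.32 ± 0.17 with its groups apart. Abca1 and Soat1 were chosen after their values were seen. Mylip, Abca1, Soat1 and Abcg1 had the highest log2 fold changes of the 15 tested genes. Among the others, Apoe had 0.08 ± 0.33, Lpcat3 0.17 ± 0.16, Npc2 -0.01 ± 0.16 and Rxrb -0.16 ± 0.17. The receptor gene Nr1h2 (LXR beta) had -0.18 ± 0.15, and Nr1h3 (LXR alpha) had 13 counts in all.

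Further genes of fatty acid supply, elongation and desaturation gave 16 tested of 27, 6 higher and 10 lower, with a median of -0.085. Acsl3, an acyl-CoA synthetase of lipid droplets and the endoplasmic reticulum, had 10.5, 7.83 and 11.6 CPM in CK1i and 25.9, 16.0 and 12.7 CPM in CTRL. Every CK1i library lay below every CTRL library, and its log2 fold change of -0.87 ± 0.29 (SE) did not pass the test (edgeR adjusted p = 0.93). CTRL replicate 1 was again the highest, and without it the value was -0.52. Hsd17b12, a reductase of the elongation cycle, had -0.41 ± 0.24, and -0.069 without CTRL replicate 3, its highest library. The desaturase genes Fads2 and Fads3 and the malic enzyme gene Me1 had 0 counts in all 6 libraries.

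Genes of fatty acid oxidation had 17 of 19 tested, 8 higher and 9 lower, with a median of -0.065 and 0 past the threshold. Echs1, the enoyl-CoA hydratase of the mitochondrial cycle, had -0.32 ± 0.17 (SE) with its groups apart, and Eci1, an enoyl-CoA isomerase, -0.23 ± 0.17. Among markers of other cells, Cd68 averaged 32.8 ± 1.96 CPM under CK1i against 23.3 ± 2.14 CPM under CTRL (SD, n = 3). The log2 fold change of Cd68 was 0.50 ± 0.18 and that of Tcf7, a T-cell factor, 0.67 ± 0.26 (SE), neither past the threshold. Both had the smallest p of their lists. Of the tested T-cell genes 2 were higher and 1 lower, which was Trac with -0.05 ± 0.49. Of the tested macrophage genes 3 were higher and 0 lower, with Mrc1 at 0.05 ± 0.41. The part of these markers in the values of the members was not tested. These 6 further lipid lists had 7, 17, 16, 15, 16 and 17 tested genes, in the order given above. Over them, edgeR gave an unadjusted p under 0.05 for Mylip with a higher value and for Aup1, Trit1 and Acsl3 with lower values. Of all tested genes 4.70% had such a p, 2.70% with higher and 2.00% with lower values, so these 4 genes are no result about the lists.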

How the data were processed

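Libraries of 3′ ends with unique molecular identifiers (QuantSeq forward) were read for 75 bases, per the labels' protocols. The deposited table holds raw counts per gene, which the authors made from their reads. Per the submitters' processing notes, the tools included STAR 2.7.3a, featureCounts 1.6.3, UMI-tools 1.1.1, Trimmomatic 0.36 and limma, and the build was GRCm38.p6. The sources used here do not give whether identifiers were collapsed or the strand setting. The floor of 3 counts covers counting error only, and confidence intervals come from the edgeR fit and its spread between libraries.

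Samples were grouped by the treatment label. Replicate numbers were given here within each group, in the order of the deposited samples, and are not from the labels. CK1i and CTRL were compared in R 4.3.3 with edgeR 4.0.16 (robust quasi-likelihood F test, TMM, filterByExpr with a minimum count of 10 and a total of 15), tested on simulated data beforehand. The SE is the log2 fold change over the root of F, and log2 CPM used a prior count of 2. Tests were two-sided. Alternatives were other size factors, no filter, a minimum count of 30, DESeq2 1.42.0, limma-voom 3.58.1, and each library left out. Named were the 12 members with the smallest p, a set of genes always included, and up to 2 genes per further list by smallest p, of which some are not reported here. The members and lists were chosen with earlier results of these data known. Gene positions are from GENCODE M21 (GRCm38), and 3′ ends (the last 300 bases) were compared with all transcripts by blastn 2.17.0 at 95% identity over at least 75 bases. Hbb-bs was not found by symbol.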

Additional observations from a re-analysis of the deposited data

How the results depend on the processing

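No member was called under any of the 11 alternatives. Over all genes, the 0 calls of edgeR's quasi-likelihood test (473 genes at an unadjusted p under 0.05) became 3 with no filter and 8 with DESeq2, stood at 0 with limma-voom (479 at an unadjusted p under 0.05), DESeq2-type size factors and the stricter filter, and ran from 0 to 1 with 1 library left out (1 without CK1i replicate 2, CTRL replicate 1 or CTRL replicate 3). DESeq2 gave 318 genes at an unadjusted p under 0.05. Fdps and Idi1, tested only with no filter, had log2 fold changes of -1.18 ± 0.65 and 0.76 ± 0.84 (SE). With 1 library left out, the median of all tested members ran from -0.047 to 0.056 and that of the mevalonate and isoprenoid enzymes from -0.31 (without CK1i replicate 1) to 0.072. Among the members named by rule, some values turned sign with 1 library left out. Fasn ran from -0.13 to 0.16, Sqle from -0.43 to 0.17, and Tm7sf2 from -0.16 to 0.79. The members not named by rule were not looked at singly in this way. Of the genes named by rule, Ube2c, of the proliferation list, passed in DESeq2 (log2 fold change 1.43, adjusted p = 0.0060). The other size factors, filters and tools turned no sign of a gene named by rule. No paired analysis was possible because the labels give the groups no shared replicate numbers. Depth limits Idi1, Fdps, Fdft1, Elovl6 and Tm7sf2 most, with 14 to 98 counts each over all libraries.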
